A study of Mus musculus with 4 samples.

Results

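A small population of fetal mouse cortical cells, 65 of 6562 in a droplet single-cell RNA-Seq table, was selected on 5 genes that mark Cajal-Retzius cells and the cortical hem they come from. A cell was chosen when at least 2 of *Reln*, *Trp73*, *Lhx1*, *Lhx1os* and *Rspo3* were above 0 while *Lhx6*, *Dlx1* and *Dlx2*, genes of interneurons and striatal neurons, were at 0. The 224 cells whose barcode occurs under all 4 library prefixes were left aside first, which left 6338 cells, and the 65 chosen cells were 1.03% of these. The other 6273 cells were used for comparison.

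The libraries came from the cortex of C57BL/6J fetuses at E18.5 (late gestation), sorted for cells with CD24, a surface protein of neuronal cells, and without CD45, a surface protein of blood cells. WT3 and WT6 were *Setd5*+/+ libraries, and Het5 and Het9 were *Setd5*+/− libraries, in which a GFP-containing cassette interrupts 1 allele of the chromatin regulator *Setd5*. Levels are counts of unique molecular identifiers (UMIs, 1 per captured transcript) per 10000 UMIs of a cell, averaged over the cells of a library. They are compared between cells for the same gene and not between genes.

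Cajal-Retzius cells are early-born neurons of the outermost layer of the cortex. They secrete reelin, the glycoprotein that guides migrating cortical neurons, and many of them arise at the cortical hem, a Wnt- and Bmp-producing strip at the edge of the medial pallium. Those from the hem express the p53 relative p73 and LIM-homeodomain factors, and most die after birth.

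Of the 5 rule genes, *Reln* encodes reelin and lies on chromosome 5 (GRCm38, 21884454 to 22344702, minus strand). *Trp73* encodes p73 and lies on chromosome 4 (154056253 to 154140208, minus strand). *Rspo3* encodes R-spondin 3, a secreted amplifier of Wnt signaling, and lies on chromosome 10 (29452416 to 29535867, minus strand). *Lhx1*, a LIM-homeodomain factor, and *Lhx1os*, a long noncoding RNA, are neighbors on chromosome 11 that are transcribed away from each other, *Lhx1* from the minus strand (84518284 to 84525535) and *Lhx1os* from the plus strand (84525660 to 84535831). Both were counted by the rule as separate markers although their RefSeq starts are 126 bases apart. The 125 bases between the starts, at chr11:84525535-84525659 on the plus strand of GRCm38.p6, are shown because 2 of the 5 markers share them. The capitals mark a match to TGACGT at 84525579, which reads in this order on the minus strand. They also mark CCAAT at 84525598 on the plus strand.
Lhx1 to Lhx1os: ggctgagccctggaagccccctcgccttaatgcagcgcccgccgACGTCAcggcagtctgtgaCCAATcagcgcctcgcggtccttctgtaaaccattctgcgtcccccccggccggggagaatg
Both strands were searched. The letters TGACGT were found in 4.64% of 32851 windows of 125 bases before RefSeq starts. For CCAAT the share was 21.9%. The TATA box letters TATAAA had 0 matches here and occurred in 6.55% of those windows. The E-box CANNTG also had 0 matches here and occurred in 41.6%. The matches are letters in a window and were not tied to any factor.

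The RNA of the neighbors was found together in some cells and apart in more. Of the 6338 cells, 63 had UMIs of *Lhx1* or *Lhx1os* and 25 had both. The chosen cells included 40 of the 63, and the 25 with both were among them by the rule, which counts each as a marker. Only 1 cell was chosen by *Lhx1* and *Lhx1os* alone. *Trp73* was above 0 in 35 of the 6338 cells and in 32 chosen ones, of which 31 also had *Lhx1* or *Lhx1os*. A further 9 chosen cells had *Lhx1* or *Lhx1os* without *Trp73*. Since a cell needed 2 markers to be chosen, these counts describe the choice.

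*Reln* was above 0 in 62 of the 65 cells, *Rspo3* in 59, *Lhx1os* in 33, *Trp73* in 32 and *Lhx1* in 32. All 5 genes were above 0 in 19 cells, 13 had 4 of them, 5 had 3 and 28 had 2. The chosen cells thus fell mainly into those with nearly all markers and those with the fewest the rule allows. The largest combination was *Reln* with *Rspo3* and nothing else, in 24 cells. The remaining 41 cells had *Trp73*, *Lhx1* or *Lhx1os* and are called *Trp73*/*Lhx1* cells here, and the 24 are called *Reln*/*Rspo3* cells.

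These kinds also differed in the amount of marker RNA, which the rule did use. In the 41 *Trp73*/*Lhx1* cells the median was 8 *Reln* UMIs (0 to 44) and 12 *Rspo3* UMIs (0 to 31). In the 24 *Reln*/*Rspo3* cells it was 2 *Reln* UMIs (1 to 8) and 7 *Rspo3* UMIs (1 to 28). Just outside the limit, among cells with *Lhx6*, *Dlx1* and *Dlx2* at 0, lay 410 with exactly 1 marker: 84 had *Reln* alone (median 1 UMI, 1 to 4) and 319 had *Rspo3* alone (median 2 UMIs, 1 to 28). Just inside it, the 28 cells with exactly 2 markers had a median of 2 *Reln* and 6.5 *Rspo3* UMIs. The *Reln* counts of the 24 cells therefore overlapped those of cells left out. A further 3 cells with 2 or more markers were left out for *Lhx6*, *Dlx1* or *Dlx2*.

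**Figure D1:**
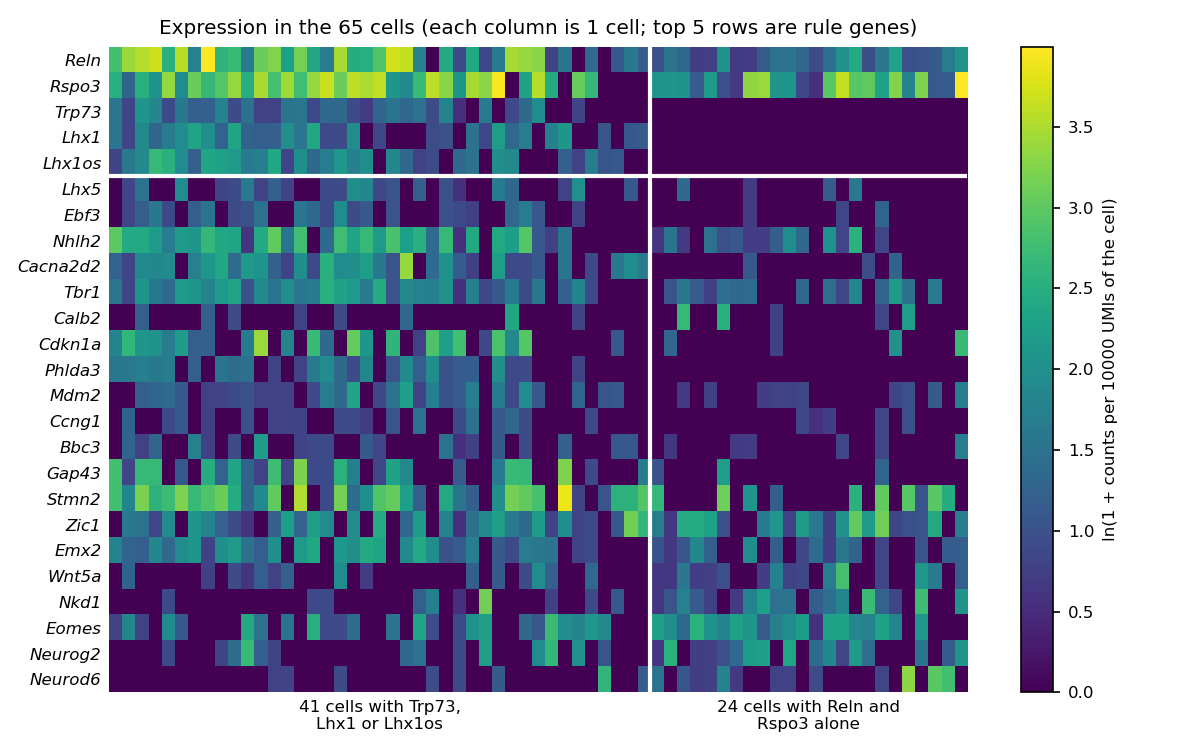
Heat map of the 65 cells (columns, the 41 *Trp73*/*Lhx1* cells at the left and the 24 *Reln*/*Rspo3* cells at the right of the white line) and 25 genes (vertical axis, the 5 rule genes above the white line), colored by ln(1 + counts per 10000 UMIs of the cell). *Cacna2d2*, *Cdkn1a*, *Phlda3* and *Gap43* fill mainly the left block, while *Nkd1* and *Eomes* are found in a larger share of the columns of the right block.

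The 4 libraries held 1445 to 1954 cells with 8205330 to 11742956 UMIs. *Setd5* over all cells averaged 1.18 in WT3, 1.07 in WT6, 0.540 in Het5 and 0.586 in Het9, lower in both *Setd5*+/− libraries as labeled. The X-inactivation RNA *Xist* averaged 20.6 and 21.5 in WT3 and WT6 against 0.152 and 0.310 in Het5 and Het9, so sex and genotype cannot be told apart. The sort was reflected in *Cd24a* at 12.2 to 14.2 and in *Ptprc*, which encodes CD45, at 0.0733 to 0.161. A further 53 cells had a barcode under 2 or 3 prefixes, and none of them was chosen.

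Depth moved with the choice. The chosen cells had a median of 7592 UMIs and 2882 genes, the other cells 5764 UMIs and 2282 genes, and the median mitochondrial share was 4.14% and 3.47%. For comparison, 99 cells with both *Isl1* and *Ebf1*, striatal factors, were taken as cells that should lack the markers. Chosen cells were left out of the 99, so the marker shares of the 99 are in part set by the choice. With a median of 4063 UMIs, 2.02% of them had a UMI of *Reln*, 2.02% of *Lhx1*, 2.02% of *Rspo3*, and 0 of 99 had *Trp73* or *Lhx1os*, which allows up to 3.03% (3 counts). *Rspo3* was above 0 in 5.88% of the other cells, *Reln* in 1.88% and *Lhx1* in 0.112%. *Cacna2d2*, which is not a marker, was found in 11.1% of the 99 and 3.87% of the other cells. The 99 therefore give no single background level, since some of these genes were more frequent in them than in the other, deeper cells. After all cells were thinned to 2500 UMIs, which left out 355 cells and none of the 65, the rule chose 49 cells, of which 47 were among the 65. The part of depth in the choice was not tested beyond this.

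Several genes of Cajal-Retzius cells that the rule did not use stood high in the chosen cells of every library. Since the cells were chosen from the same RNA values, these are descriptions without a test. Of 10 such genes fixed in a list, 9 passed the filter on low values (a mean of at least 0.1 in the chosen or the other cells) and 6 were at least 1 higher on the log2 scale in each of the 4 libraries. These were *Nhlh2*, *Cacna2d2*, *Lhx5*, *Ebf3*, *Tbr1* and *Cxcr4*. Among all 9015 genes that passed the filter, 171 (1.9%) met that limit, the 5 rule genes among them. The median log2 ratio, taken after adding 0.1 to each mean, was 2.04 over the 9 list genes, 1.94 over all 10, and -0.02 over all genes compared.

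The neuronal factor *Nhlh2* averaged 5.24 in WT3, 4.68 in WT6, 6.77 in Het5 and 5.50 in Het9, against 0.30 ± 0.03 in the other cells (mean ± SD, n = 4 libraries). The mean of the chosen cells was above that of the other cells in every library, with a log2 ratio of 3.82 ± 0.15. It was found in 48 of the 65 chosen and in 11.6% of the other cells, so single cells overlapped. *Lhx5*, the LIM-homeodomain relative of *Lhx1*, averaged 0.98, 1.33, 0.96 and 0.97 against 0.01. It was found in 27 of the 65 cells and in 31 of the 6273 other cells, and in 1.01% of the 99 *Isl1* and *Ebf1* cells. At 2500 UMIs per cell it was found in 24.6% of the 65 cells and 0.284% of the other cells. The 65 were those chosen at full depth, and the part of depth in this contrast was not tested. *Cacna2d2*, a calcium channel subunit, averaged 2.68, 3.08, 3.71 and 2.24 against 0.09, with a log2 ratio of 4.02 ± 0.34. *Ebf3*, a factor of Cajal-Retzius and other early neurons, averaged 0.65, 1.38, 0.55 and 0.86 against 0.02. *Tbr1*, a factor of early-born glutamatergic neurons, was also present in other cells (0.75) and averaged 2.86, 3.75, 3.35 and 3.58 in the chosen ones. Each of these genes was higher in each library, and their spread between libraries was small beside the distance to the other cells.

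Not all list genes reached the limit. *Calb2* (calretinin), a classical Cajal-Retzius marker, averaged 0.28 in WT3, 1.02 in WT6, 2.15 in Het5 and 0.23 in Het9, with UMIs in 13 cells, and its libraries differed widely. *Ndnf* had 11 UMIs in 5 cells, *Car10* 7 UMIs in 5 cells and *Ebf2* 3 UMIs in 3 cells. The chemokine receptor *Cxcr4*, through which Cajal-Retzius cells are held below the meninges, averaged 0.46, 0.42, 0.39 and 0.23 against 0.04.

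**Figure D2:**
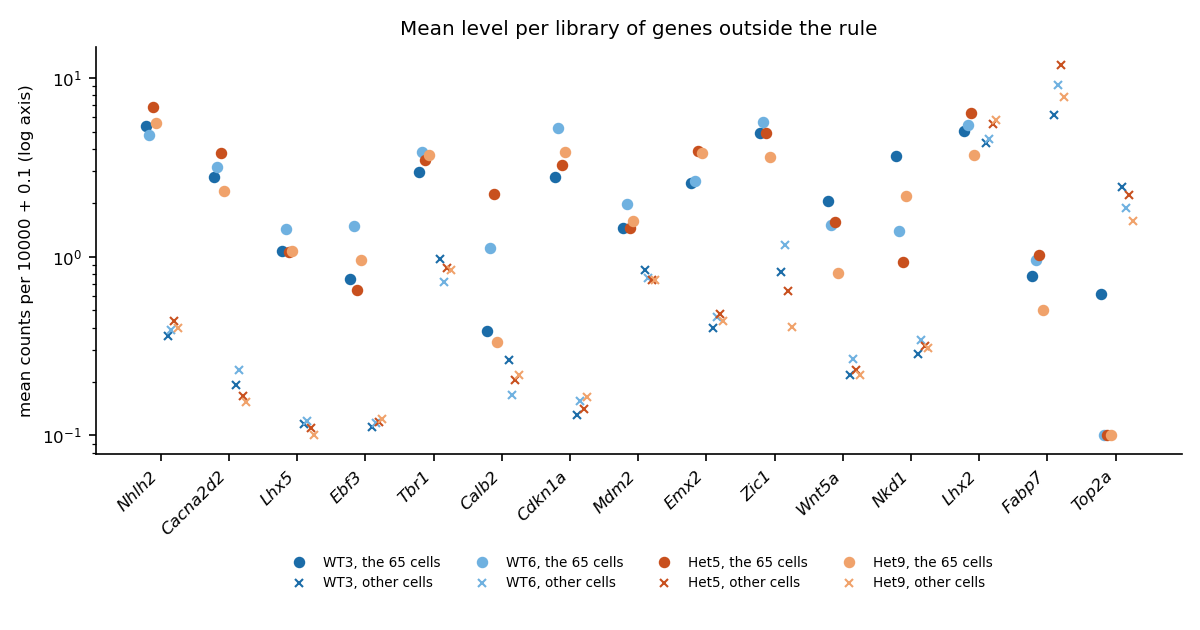
Mean counts per 10000 UMIs plus 0.1 (log axis) for 15 genes outside the rule in each library, with circles for the 65 chosen cells and crosses for the other cells (blue, *Setd5*+/+ libraries, and orange, *Setd5*+/− libraries). The circles of *Nhlh2*, *Cacna2d2*, *Lhx5* and *Cdkn1a* lie above all crosses, those of *Fabp7* and *Top2a* lie below all crosses, and those of *Lhx2* (3.61 to 6.25) span the range of its crosses (4.23 to 5.68).

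Genes listed for the cortical hem stood high only in part, which does not show that hem cells were among those chosen. Of 16 listed genes for the hem and its Wnt and Bmp signals, 12 were in the table, 8 passed the filter and 3 met the limit in each library, namely *Wnt5a*, *Lmx1a* and *Msx1* (1.9% of all genes met it). The median log2 ratio was 1.54 over the 8 and 0.99 over the 12. At 2500 UMIs per cell the median over those that passed was 0.91. *Wnt5a*, a secreted Wnt of the hem, averaged 1.94 in WT3, 1.41 in WT6, 1.47 in Het5 and 0.71 in Het9 against 0.13 in the other cells, a log2 ratio of 2.59 ± 0.55 (SD, n = 4 libraries). *Lmx1a*, a homeobox factor of the hem and roof plate, had 11 UMIs in 8 cells, and the Bmp-responsive *Msx1* had 10 UMIs in 7 cells. The defining hem ligands were at or near 0: *Wnt2b* had 0 UMIs, which allows up to 0.0613 per 10000, and *Wnt3a* had 2 UMIs in 2 cells. Genes outside the rule thus fitted the name Cajal-Retzius for 6 of 10 listed and the name cortical hem for 3 of 16.

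*Wnt8b*, a Wnt of the medial pallium, averaged 0.89, 0.27, 0.10 and 0.45 in WT3, WT6, Het5 and Het9 against 0.03. The *Rspo3* relative *Rspo2* averaged 0.87, 0.05, 0.34 and 0.90 against 0.01. Both were low in at least 1 library and did not meet the limit.

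Of 14 listed genes that rise in cells receiving Wnt signals, 13 were in the table, 7 passed the filter and 4 met the limit that 1.9% of all genes met: *Nkd1*, *Lef1*, *Axin2* and *Sp5*. The median log2 ratio was 1.93 over the 7 and 0.36 over the 13, since the others were scarcely found in any cell. *Nkd1*, a feedback inhibitor of the pathway, averaged 3.56, 1.30, 0.83 and 2.08 against 0.21. *Lef1*, a transcription factor that acts with β-catenin, averaged 1.46, 0.59, 1.25 and 1.03 against 0.11. *Axin2*, a negative regulator and common reporter of the pathway, averaged 0.40, 0.35, 0.68 and 1.20 against 0.08. The R-spondin receptor *Lgr5* had 13 UMIs in 8 cells, and *Lgr4* had 1.

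Of 14 listed transcription factors of the medial pallium and septum, 13 passed the filter and 8 met the limit in every library (1.9% of all genes), with a median log2 ratio of 2.03 over the 13 and 2.001 over all 14. They were *Emx2*, *Zic1*, *Zic2*, *Zic4*, *Zic5*, *Dmrta2*, *Dmrt3* and *Lhx9*. *Emx2*, a factor that patterns the medial cortex, averaged 2.47 in WT3, 2.56 in WT6, 3.79 in Het5 and 3.68 in Het9 against 0.34, and *Zic1*, a zinc-finger factor of the septum and medial pallium, averaged 4.84, 5.55, 4.83 and 3.51 against 0.65. *Emx1* (log2 ratio 0.50 ± 0.92) and *Zbtb20* (0.92 ± 0.55) did not meet it.

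Neither of the telencephalic factors *Lhx2* and *Pax6* met a limit. *Lhx2*, a LIM-homeodomain factor of cortical progenitors, averaged 5.03 ± 1.10 in the chosen and 4.94 ± 0.71 in the other cells (SD, n = 4 libraries), and the log2 ratio of *Pax6*, a factor of radial glia, was 0.68 ± 0.28.

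In all, 132 genes (1.46% of the 9015) were lower by at least 1 in each library. Among the listed genes these were 7 of 12 for cycling cells, 3 of 10 for radial glia and 6 of 12 for interneurons and striatal neurons. The interneuron contrast is in part set by the rule, which required *Dlx1* and *Dlx2* at 0. *Ccnd2*, a cyclin of neural progenitors, averaged 0.49, 1.08, 0.19 and 0.58 against 12.2, and *Fabp7*, a fatty acid binding protein of radial glia, averaged 0.68, 0.86, 0.92 and 0.40 against 8.60. The DNA topoisomerase *Top2a* had 7 UMIs in 3 of the 65 cells. The GABA-synthesis gene *Gad1* and the vesicular GABA transporter *Slc32a1* had 0 UMIs.

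The glutamate transporter *Slc17a6* (VGLUT2), the vesicular transporter of early excitatory neurons, was the 1 gene of 11 on the excitatory list that met the upper limit (1.9% of all genes), between 1.40 in Het9 and 2.25 in Het5 against 0.43. The cortical projection neuron genes *Neurod2* and *Neurod6* averaged 1.29 and 1.38 against 5.22 and 6.90, with log2 ratios from -2.56 to -2.23 and SDs over 1. Of 6 intermediate progenitor genes none met either limit, with *Eomes* at 3.62, 3.38, 4.13 and 4.72 against 1.96. None of 10 genes found in young neurons in general met either limit, with a median log2 ratio of 0.35. *Tubb3*, a neuronal tubulin, averaged 20.4, 32.0, 31.3 and 20.6 against 21.6, and its libraries lay on both sides of the level in the other cells.

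Markers of other cell types were counted over whole lists. Of 6 immune genes 3 were at 0 in all 65 cells, of 6 melanocyte genes 3, and 4 of the 10 meningeal and vascular genes that were measured, including the collagens *Col1a1*, *Col1a2* and *Col3a1*. Among all 16600 genes in the table, 4520 were at 0 in the 65 cells, so such counts say little by themselves. Summed over the list, the meningeal and vascular genes ranged from 0.149 to 1.05 in the chosen cells and from 0.0333 to 0.0845 in the others, and 5 cells had UMIs of the receptor *Kdr*. The immune sum was 0 to 0.286 against 0.0661 to 1.55. Choroid plexus genes summed to 0.333 to 0.992 against 0.0745 to 2.00, with the defining *Ttr* at 1 UMI. Of its 8 genes 6 were in the table, 3 passed the filter and 1, *Clic6*, met the upper limit (1.9% of all genes), with 12 UMIs in 10 cells. Of 6 diencephalic genes in the table, 4 passed the filter and 1, *Lhx9*, met the limit (1.9% of all genes). The median log2 ratio was 1.53 over the 4 and 0.60 over the 6. *Lhx9* and *Barhl2* are also on the medial pallium list. *Barhl2* had 17 UMIs in 14 cells (log2 ratio 1.85 ± 0.90), *Rora* 10 UMIs in 9 cells (1.21 ± 0.54) and *Tcf7l2* 2 UMIs, while *Gbx2* and *Irx3* had 0. Of 6 red cell genes 4 were lower in each library (the globins *Hba-a1*, *Hba-a2*, *Hbb-bs* and *Hbb-bt*, near-identical copies whose reads may be shared; 1.46% of all genes), with list sums of 4.65 to 12.7 against 15.9 to 64.6. The part of these values in the results was not tested.

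The reelin pathway beyond the ligand did not stand out. None of 11 genes for reelin receptors and their signaling met either limit, and the median log2 ratio was 0.13 over the 10 that passed the filter. The receptor *Vldlr* averaged 0.51, 0.34, 0.44 and 0.49 against 0.15, the receptor *Lrp8* averaged 0.79, 1.10, 0.77 and 1.47 against 1.19, and the adaptor *Dab1* averaged 0.19, 0.18, 0.47 and 0.15 against 0.37. Among partners of LIM-homeodomain factors, 2 of 8 were lower in each library (*Lmo1* and *Lmo3*; 1.46% of all genes), and the cofactor *Ldb1* averaged 0.81 against 0.83. Of 14 chemokine and guidance genes, *Sema6a*, *Unc5b* and *Cxcr4* were higher (1.9% of all genes) and *Plxna4* and *Sema3a* lower (1.46%) in each library. *Sema6a*, a membrane semaphorin, averaged 3.76, 2.44, 4.14 and 3.73 against 0.11.

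A few targets of the p53 family, to which p73 belongs, stood high. *Cdkn1a*, the cell cycle inhibitor p21 and a classical p53 target on chromosome 17 (29090976 to 29100727, plus strand), averaged 2.69 in WT3, 5.17 in WT6, 3.14 in Het5 and 3.74 in Het9 against 0.05 in the other cells. With 0.1 added to each mean, its log2 ratio of 4.64 ± 0.30 (SD, n = 4 libraries) came next after those of *Reln* (6.23) and *Rspo3* (5.54). The rank depends on this addition, which lowers the ratio most for genes nearest 0 in the other cells. *Cdkn1a* was found in 44.6% of the chosen cells, in 1.80% of the others and in 1.01% of the 99 *Isl1* and *Ebf1* cells. At 2500 UMIs per cell it was found in 33.8% of the cells chosen at full depth and 0.935% of the others. *Phlda3*, a p53-induced inhibitor of Akt that is not on the list, averaged 1.25, 1.07, 1.57 and 1.70 against 0.04. Of the 9 genes listed for the p53 family and its targets, 7 passed the filter and 3 met the limit (1.9% of all genes), *Cdkn1a* with the proapoptotic *Bbc3* (0.81 against 0.14) and the cyclin *Ccng1* (0.61 against 0.12). *Mdm2*, which encodes the ligase that degrades p53, had a log2 ratio of 1.05 ± 0.25 and missed the limit in at least 1 library. The log2 ratios of *Bax* and *Perp*, further p53 targets, were 0.48 ± 0.23 and 0.94 ± 0.29. *Trp53* itself averaged 1.45 against 1.63, and *Trp63* had 1 UMI.

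The remaining leading genes included *Ppp2r2c*, a regulatory subunit of protein phosphatase 2A (log2 ratio 4.55 ± 0.56), *Serpine2*, a secreted protease inhibitor (3.77 ± 0.33), *Rcan2*, a calcineurin regulator (3.70 ± 0.47), the zinc-finger factor *Insm2* (3.63 ± 0.16), *Cpne2*, a calcium-binding copine (3.35 ± 0.24), and *Tmem158* (3.19 ± 0.32). *Insm2* averaged 1.30, 1.28, 1.22 and 1.02 against 0.005 and varied least among these. Each was higher in the chosen cells of all 4 libraries.

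The 41 *Trp73*/*Lhx1* cells were then set beside the 24 *Reln*/*Rspo3* cells. Among 9201 genes compared, 110 (1.2%) were at least 1 higher on the log2 scale in the former of every library, and 31 (0.337%) were at least 1 lower. The 110 include 4 rule genes, *Reln*, *Trp73*, *Lhx1* and *Lhx1os*, of which the last 3 are at 0 in the latter by definition. The kinds were told apart by rule genes, and a library held 7 to 16 cells of the first kind and 5 to 7 of the second, so these are descriptions as well. Without any 1 library, where the limit had to be met in 3 instead of 4, the higher count was 226 to 271. The median depth was 7148 UMIs in the 41 and 8103 in the 24.

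Of the 7 compared genes of the p53 list, 1, *Cdkn1a*, was higher in the *Trp73*/*Lhx1* cells of each library (1.2% of all genes). Its means were 4.18 in WT3, 6.16 in WT6, 5.43 in Het5 and 6.11 in Het9, and 0, 2.91, 0.45 and 0.19 in the *Reln*/*Rspo3* cells. Summed over cells, it had 172 UMIs in 25 of 41 cells and 15 UMIs in 4 of 24, or 5.84 (exact 95% Poisson interval 5.002 to 6.78) against 0.77 (0.43 to 1.27) per 10000, and 5.51 against 0.26 without WT6. *Phlda3* had 64 UMIs in 27 cells against 0 UMIs, at least 14.2-fold higher when the zero is set to a floor of 3 counts over the group. *Ccng1*, *Bbc3* and *Mdm2* were at 0.92, 1.09 and 1.94 against 0.26, 0.36 and 0.56 per 10000, with intervals that did not overlap, but did not meet the limit in each library. Those of *Bax* overlapped (3.63 to 5.17 and 2.48 to 4.13). These and all other intervals cover counting error only.

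Of 9 compared genes of the Cajal-Retzius list, 2 met this limit (1.2% of all genes), *Cacna2d2* and *Ebf3*. *Cacna2d2* averaged 3.99, 4.26, 6.89 and 3.51 in the *Trp73*/*Lhx1* cells and 0.32, 0.37, 0 and 0.34 in the *Reln*/*Rspo3* cells, with UMIs in 35 of 41 and 3 of 24. *Ebf3* was found in 23 of 41 and 3 of 24 and was higher in each library. *Nhlh2* had 7.51 per 10000 (6.55 to 8.57) against 2.05 (1.46 to 2.79), but in WT3 its means were 5.98 and 3.92, short of the limit. *Lhx5* had 1.56 (1.14 to 2.08) against 0.46 (0.21 to 0.87), and in WT3 its means lay the other way, 0.85 and 1.22, without which the summed levels were 1.81 and 0.26. Summed over libraries, *Calb2* (0.54 against 1.43) and *Car10* (0.034 against 0.307) lay the other way, mostly through Het5, where their means were 0.40 against 4.18 and 0 against 1.17. In Het9 both were higher in the *Trp73*/*Lhx1* cells (0.26 against 0.19 and 0.16 against 0), as was *Calb2* in WT3 (0.44 against 0). Without Het5 the summed levels were 0.61 against 0.51 for *Calb2* and 0.040 against 0.072 for *Car10*. The 3500 cells without any rule gene held 6 UMIs of *Lhx5* and 48 UMIs of *Cdkn1a* in all.

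Of the 10 genes of young neurons in general, 2 met it (1.2% of all genes), *Gap43* and *Syt1*. The growth cone protein *Gap43* had 5.33 (4.53 to 6.24) against 0.46 (0.21 to 0.87) per 10000 (5.49 against 0.14 without Het5), and the synaptic vesicle calcium sensor *Syt1* had 20 UMIs against 1. *Dcx*, a microtubule protein of migrating neurons, and *Rbfox3* lay the other way when summed, at 2.31 against 3.89 and 0.65 against 1.38, but not in WT3 (2.69 against 2.01 and 0.67 against 0.59). Outside that list, the imprinted noncoding RNA *Meg3* averaged 29.3, 28.8, 10.4 and 10.9 against 6.78, 0.18, 0.33 and 1.17. *Cpne2* had 68 UMIs against 0, at least 15-fold higher on the same floor, and *Serpine2* 81 UMIs against 1. The Wnt ligand *Wnt7b*, which is on the hem list, had 36 UMIs against 1. *Tubb3* was at 32.3 (30.3 to 34.5) and 15.3 (13.6 to 17.1).

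In the *Reln*/*Rspo3* cells, 0 of 10 compared hem genes, 1 of 7 Wnt-response genes, 0 of 5 intermediate progenitor genes and 0 of 9 radial glia genes were at least 1 higher on the log2 scale in each library (0.337% of all genes). Of the same 10 hem genes, 1, *Wnt7b*, was higher in each library in the *Trp73*/*Lhx1* cells (1.2% of all genes). *Sp5*, a Wnt target, was at least 1 higher in each library, with 17 UMIs in 10 of 24 cells against 4 UMIs in 4 of 41. *Nt5dc2* averaged 8.46, 7.71, 10.9 and 9.02 against 2.48, 2.67, 0.66 and 1.33 and was higher in the *Reln*/*Rspo3* cells of every library. The guidance cue *Ntn1* (netrin 1) had 13 UMIs against 0, at least 6.53-fold higher on the floor. *Wnt5a* had 2.05 (1.46 to 2.79) against 0.88 (0.58 to 1.29) per 10000 and *Nkd1* 3.28 (2.52 to 4.18) against 0.95 (0.63 to 1.37), both short of the limit in at least 1 library. Without WT3, *Nkd1* was at 2.97 against 0.44. *Msx1* had 9 of its 10 UMIs in these cells. *Lmx1a* (0.15 against 0.27), *Bmp7* (0.10 against 0.20), *Lgr5* (0.10 against 0.37) and *Lef1* (0.82 against 1.05) lay the other way when summed over libraries, but not in each. In WT3 the *Reln*/*Rspo3* cells had more *Lmx1a* (0.44 against 0) and *Lef1* (1.82 against 1.26), and in Het5 more *Lgr5* (0.47 against 0.28), while *Bmp7* was nearly equal in WT6 (0.263 against 0.261) and Het9 (0.194 against 0.189).

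*Eomes*, a factor of intermediate progenitors and young glutamatergic neurons, was found in 20 of 24 *Reln*/*Rspo3* cells and 25 of 41 *Trp73*/*Lhx1* cells, at 5.68 (4.67 to 6.84) against 3.33 (2.70 to 4.06) per 10000, but at 3.09 against 3.50 in WT6. *Mfng*, of the same list, was at 0.26 against 1.12, but at 0.96 against 0.80 in WT6. *Neurog2*, a proneural factor, had 3.48 (2.70 to 4.41) against 1.87 (1.41 to 2.43). The projection neuron factor *Neurod6* had 2.51 (1.86 to 3.32) against 0.51 (0.29 to 0.84), but 0.31 against 1.82 in WT3. The first value rested on WT6, where it averaged 8.83 against 0.38, and without that library the summed level was 1.03 against 0.62. *Ccnb1*, a mitotic cyclin, had 21 UMIs in 2 of the 24 and 0 in the 41, and without WT3 its level in the 24 was 0.066 per 10000 instead of 1.08.

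**Figure D3:**
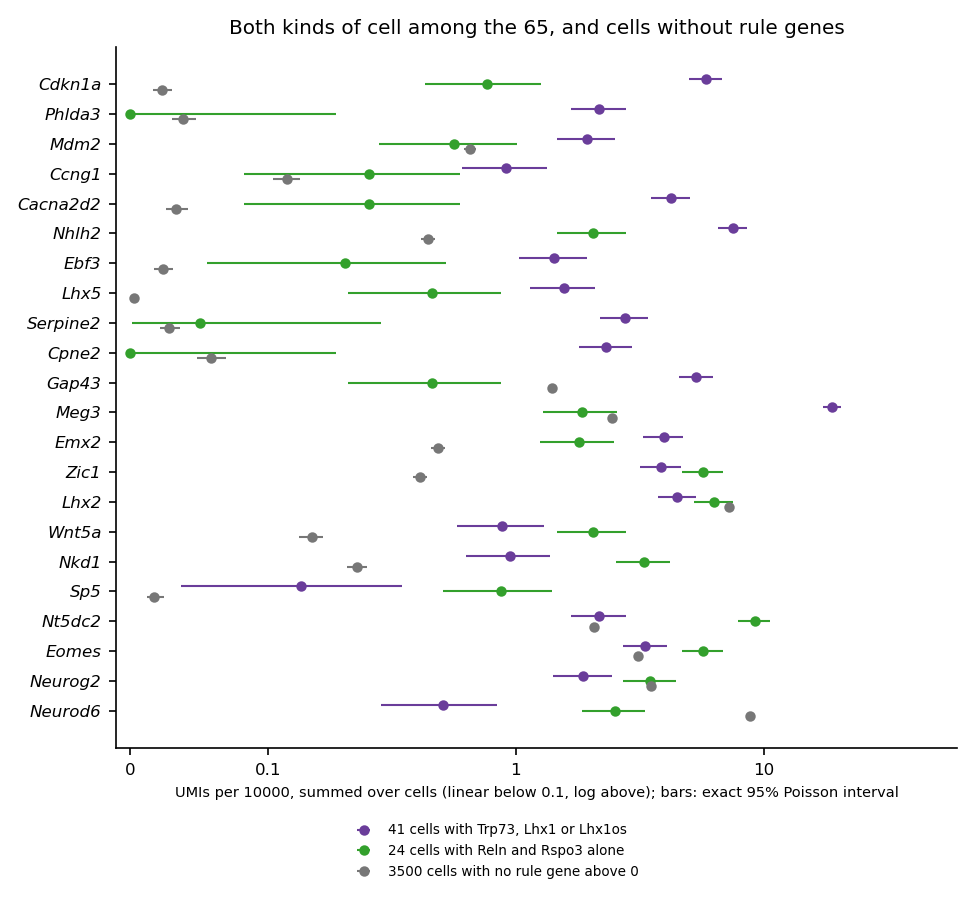
UMIs per 10000 summed over cells (horizontal axis, linear below 0.1 and log above) with exact 95% Poisson intervals, for the 41 *Trp73*/*Lhx1* cells (purple), the 24 *Reln*/*Rspo3* cells (green) and 3500 cells with no rule gene above 0 (gray). *Cdkn1a*, *Phlda3*, *Cacna2d2* and *Ebf3* are higher in purple than in green, *Wnt5a*, *Nkd1*, *Sp5* and *Nt5dc2* are higher in green, and *Neurod6* is lower in both than in gray.

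Both kinds were set beside cells with fewer markers. *Zic1* was at 3.84 per 10000 in the *Trp73*/*Lhx1* cells and 5.68 in the *Reln*/*Rspo3* cells, but at 2.35 in the 84 cells with *Reln* alone, 1.01 in the 319 with *Rspo3* alone and 0.41 in the 3500 with no rule gene. In the same order *Emx2* was at 3.94, 1.79, 0.67, 0.55 and 0.49, lower at each step. *Neurod6* was at 0.51 and 2.51 in the chosen kinds and at 10.6, 12.6 and 8.75 in the other cells. The median depths of the 5 groups were 7148, 8103, 6382, 6658 and 5766 UMIs. *Nhlh2* was at 2.05 in the *Reln*/*Rspo3* cells, between 7.51 in the *Trp73*/*Lhx1* cells and 1.36 in cells with *Reln* alone, and *Tbr1* at 2.00, between 4.21 and 1.89. *Cacna2d2* (0.26, between 4.21 and 0.04) and *Cdkn1a* (0.77, between 5.84 and 0.13) were likewise closer to cells with *Reln* alone. Other genes were closer to the *Trp73*/*Lhx1* cells, among them *Dmrta2* (2.25, between 2.99 and 0.69), *Lhx9* (0.97, between 1.09 and 0.56) and *Lef1* (0.82, between 1.05 and 0.29). Genes were not counted by which side they lay closer to.

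Whether the cells were fewer in *Setd5*+/− fetuses was asked of the 4 library shares, since the rule is blind to genotype. The chosen cells were 14 of 1397 in WT3 (1.002%, exact 95% binomial interval 0.549 to 1.68), 23 of 1898 in WT6 (1.21%, 0.770 to 1.81), 13 of 1654 in Het5 (0.786%, 0.419 to 1.34) and 15 of 1389 in Het9 (1.08%, 0.606 to 1.77). All 4 intervals overlap and Het9 lay between both *Setd5*+/+ libraries. The mean share was 1.11% ± 0.148 in *Setd5*+/+ and 0.933% ± 0.208 in *Setd5*+/− (SD, n = 2 libraries each), a difference of -0.174 percentage points (exact two-sided permutation p = 0.667). With 2 libraries against 2, no difference could reach p below 0.333, so the test could not have made a call.

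The *Trp73*/*Lhx1* cells were 0.644%, 0.843%, 0.423% and 0.648% of WT3, WT6, Het5 and Het9, a difference of -0.208 points. The *Reln*/*Rspo3* cells were 0.358%, 0.369%, 0.363% and 0.432%, a difference of 0.0340 points. The exact two-sided permutation p was 0.667 for each, with the same smallest p of 0.333.

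**Figure D4:**
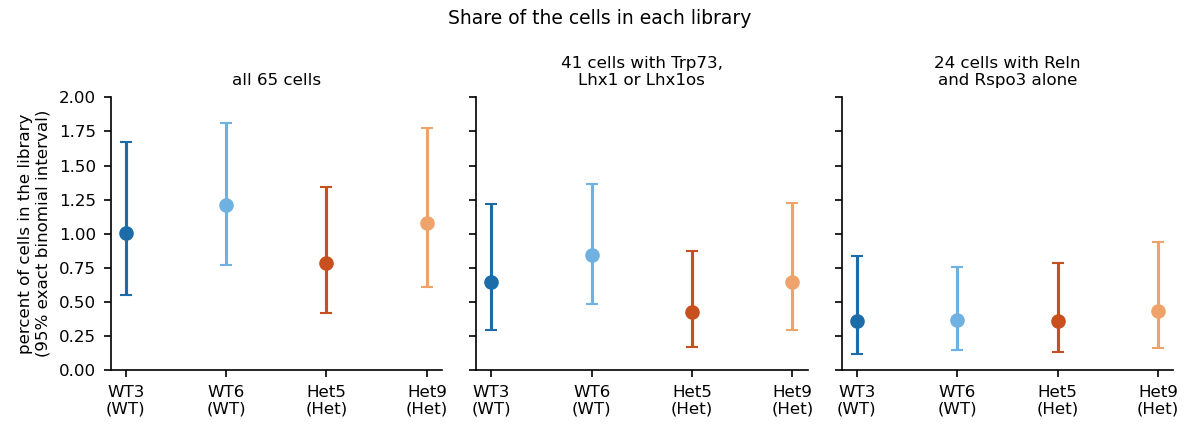
Percent of each library's cells (vertical axis) that were chosen, in all and split into the *Trp73*/*Lhx1* and *Reln*/*Rspo3* cells, with exact 95% binomial intervals, in the *Setd5*+/+ libraries (WT3 and WT6, blue) and the *Setd5*+/− libraries (Het5 and Het9, orange). All intervals within a panel overlap.

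*Setd5* in the chosen cells averaged 1.37 in WT3, 1.09 in WT6, 0.47 in Het5 and 0.62 in Het9, from 43 UMIs in 31 cells. Both *Setd5*+/− libraries were below both *Setd5*+/+ libraries, and the log2 ratio to the other cells of the same library was 0.03 ± 0.14 (SD, n = 4 libraries), so the level in these cells tracked that of their library. *Setd5* had 0.92 (0.60 to 1.33) per 10000 in the *Trp73*/*Lhx1* and 0.82 (0.47 to 1.33) in the *Reln*/*Rspo3* cells. No other gene was tested between genotypes, since only 1 of the 4 libraries held 20 of these cells.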

How the data were processed

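Single-cell RNA-Seq of 2 *Setd5*+/+ and 2 *Setd5*+/− libraries was used. In the 1 table that was deposited (16600 genes, 6562 cells), each value is a natural log, ln(1 + UMIs per 10000). Listed in the processing notes of the submitters are Seurat 2.3.0, Cell Ranger 2.1 and the build mm10. For the annotation, the aligner settings, the use of strand and the limits that cells had to pass, the entry is: not given in the sources used here. Cell name prefixes give the genotype but no replicate number. The study states 2 fetuses per genotype, and the labels do not tie a prefix to a fetus.

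Whole UMIs were recovered for 100% of 14848520 values above 0 (tolerance 0.001). Cells held 1258 to 14996 UMIs. Within each library, log2((mean in chosen cells + 0.1)/(mean in other cells + 0.1)) was computed for genes with a mean of at least 0.1 in either, and a gene counted as higher or lower when the ratio passed 1 in all 4. Gene positions are from GENCODE M21 and the printed sequence from RefSeq's GRCm38.p6 promoter windows. *Rspo3* and *Lhx5* had no entry. The planned limma comparison of genotypes needed 20 cells in each library and was not run, since 3 libraries held fewer. Scrublet (scanpy 1.11.5) marked 64 cells (0.975%) as doublets, none of them chosen, and they were kept. Only the code for the log2 ratios of chosen to other cells was tested on simulated counts.

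The cells, the marker lists and the rules for naming genes were chosen with earlier results of these data known. Named genes are the rule genes, *Setd5*, the list genes, and the 20 highest and 10 lowest by mean ratio, of which 1 is not reported here. Genes named only for the comparison of the *Trp73*/*Lhx1* and *Reln*/*Rspo3* cells were chosen after their values were seen. Alternatives were other marker limits, thinning, other pseudocounts, no filter, summed UMIs, doublets removed and each library left out. Versions were matplotlib 3.10.9, scipy 1.17.1, pandas 2.3.3, numpy 2.4.6 and Python 3.11.15.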

Additional observations from a re-analysis of the deposited data

Results flagged for a closer look

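For 5 of 164 genes examined (3.05%), the chosen cells lay above the other cells in both libraries of 1 genotype and below them in both of the other. Among all 9015 genes compared, 773 (8.57%) did so, a larger share. The difference between genotypes was not tested. It is given as the mean log2 ratio in *Setd5*+/− minus that in *Setd5*+/+. For *Btg2*, an antiproliferative gene of differentiating progenitors, it was -1.19, from 0.68 to -0.52. For *Wnt7b* it was -1.13, from 0.70 to -0.43. For *Neurod1*, a factor of young glutamatergic neurons, it was 1.43, from -0.98 to 0.46. For the neuronal RNA-binding proteins *Elavl3* and *Rbfox3* it was 0.66 and 0.71, from -0.32 to 0.33 and from -0.30 to 0.41. The chosen cells held 37 *Wnt7b* UMIs and 46 *Rbfox3* UMIs in all, from 13 to 23 cells per library, and sex cannot be told apart from genotype.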

How the results depend on the processing

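The share difference of -0.174 points kept its direction under all 11 alternatives (-0.321 without Het9 to -0.0271 without Het5). The count of 171 higher genes became 288 with a pseudocount of 0.01 and 29 with 1, and stayed between 118 and 225 under the other 14 alternatives (202 to 225 with a library left out). The Cajal-Retzius median of 2.04 became 3.04 with at least 3 markers, 3.05 and 0.85 with pseudocounts of 0.01 and 1, and 1.92 to 2.59 with a library left out. The hem median of 1.54 became 0.91 at 2500 UMIs per cell, 3.25 and 0.27 with those pseudocounts, 0.99 without a filter and 1.38 to 1.62 with a library left out. The 110 genes higher in *Trp73*/*Lhx1* cells became 220 at 2500 UMIs, 171 and 10 with those pseudocounts, and 226 to 271 with a library left out, where fewer libraries had to pass. For each other move the cause was not tested. With at least 3 markers all 37 cells were *Trp73*/*Lhx1* cells, so that comparison gave no value. These alternatives for both kinds of cell, and the comparison with only those other cells that had *Lhx6*, *Dlx1* and *Dlx2* at 0, were chosen after seeing the data. The gene test between genotypes and its alternatives were not run. No paired analysis was possible because the cell names carry no replicate number of the labels. Depth limits low genes, since the 65 cells held 489694 UMIs in all.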
